A study of Mus musculus with 17 samples.

Results

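Zfp genes are mouse genes named for zinc finger proteins, and 204 of them form the set described here. The members are the gene symbols made of Zfp and a number, other than Zfp36 and Zfp750, whose counts summed to at least 300 over the 6 RNA libraries. They make up 62.4% of the 327 such symbols and stand among 20572 genes in all. Another 123 Zfp symbols summed to under 300, of which 18 had a count of 0. The members' sums ran from 302 to 15439, with a median of 1312. The members were thus chosen by a measured value, their summed RNA count over both groups, and that count is no result. Of them, 17 members reached it only through the higher counts of the knockdown libraries, of which 5 were called higher (Zfp14, Zfp37, Zfp473, Zfp658 and Zfp661). Just inside the limit were Zfp120, Zfp612 and Zfp677, with RNA fold changes of 0.25, 0.59 and 0.65 on the log2 scale. Just outside were Zfp764, Zfp808 and Zfp28, with 1.34, 0.28 and 0.84.

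The cells were C57BL/6 mouse keratinocytes from newborn skin that had become immortal in culture on their own, after 3 passages on mitomycin-treated NIH-3T3 J2 feeder cells and later growth without feeders. Both groups were infected with a lentivirus, which carried a hairpin RNA directed at Msi2 (knockdown) or a scrambled one (control), and 2 days later were selected with puromycin at 2 ug/ml for 2 days and then expanded. Polyadenylated RNA was sequenced in 3 control and 3 knockdown libraries, and ribosome footprints, the RNA pieces that ribosomes shield from nuclease, in another 3 and 3 from cells treated with cycloheximide, which halts ribosomes. Sites bound by Msi2 came from 5 HITS-CLIP libraries, in which ultraviolet light (200 mJ/cm2, given more than once) fixes a protein to its RNA before recovery with an antibody; these were cut with RNase undiluted, at 1 in 20 for a low and a high size range, at 1 in 50 and at 1 in 75. No hairpin is named for the CLIP cells, and the labels do not say whether the libraries within a group are separate cultures, so p-values measure the spread between libraries, which may be technical.

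Most Zfp proteins bind DNA through repeated zinc fingers of the C2H2 kind, in which 1 zinc ion holds each finger. Many also carry a KRAB domain, which recruits the corepressor Trim28 and, through it, the histone methyltransferase Setdb1 and HP1 proteins, and these proteins silence retroelements and hold imprints. Such genes sit in tandem arrays of similar copies and tend to give scarce mRNAs, while other Zfp genes are old single-copy regulators or act on RNA and ribosomes. Msi2 (Musashi-2) is an RNA-binding protein that recognises short motifs with UAG, mainly in 3' UTRs, and is known to alter the translation and stability of the mRNAs it binds.

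Gene counts per library ran from 9221566 to 26785876 for RNA and from 512256 to 2959625 for footprints. Levels are in CPM, a gene's reads relative to the gene counts of its library, scaled with TMM, a correction for library composition. Footprints of Msi2 itself were at 17.0, 16.7 and 18.2 CPM in the control libraries and at 4.51, 0 and 5.08 CPM in the knockdown libraries, where a count of 0 allows up to 5.98 CPM. The fitted log2 fold change of Msi2 was -2.08 ± 0.41 (SE, adjusted p = 0.000285 by the quasi-likelihood test of edgeR, Benjamini-Hochberg adjusted, n = 3 and 3). Msi2 RNA was at 6.51, 6.63 and 8.82 CPM in control and 6.54, 6.41 and 5.10 CPM in knockdown libraries, so the groups overlapped, and its log2 fold change of -0.29 was not called (adjusted p = 0.283). The summed level of 10 keratinocyte markers was 16190 to 19375 CPM in control and 13784 to 15159 CPM in knockdown RNA libraries. Most of that sum was Krt5 (means of 7042 and 4570) and Krt14 (7268 and 5535). Of the 10 markers, 4 (Krt5, Krt14, Perp and Cdh1) were called lower in RNA and 4 (Itgb4, Itga6, Col17a1 and Lamb3) higher. These are 40% each, beside 21.7% and 22% of all genes. Fibroblast markers, which would show feeder cells, summed to 15.3 to 17.9 against 18.7 to 21.9 CPM in RNA, with 6 of 10 genes at 0. In footprints they summed to 46.7 to 63.7 CPM in control and 55.8 to 65.6 CPM in knockdown libraries, with 3 genes at 0. Other marker sums here are of RNA. Immune markers summed to 16.0 to 18.6 against 8.29 to 13.4 CPM (3 of 6 genes at 0). Nearly all of that was Cd68 (means of 16.8 and 9.86), while Ptprc (0.057 and 0.144) and Itgam (0 and 0.128) went the other way. Endothelial and muscle markers summed to 4.87 to 6.15 against 9.29 to 13.5 CPM. Their rise was mainly in Acta2 (3.37 and 6.75) and Kdr (1.57 and 3.73). Near 0, Pecam1 and Cdh5 were slightly higher and Des and Myh11 slightly lower. The part of these markers in the changes of Zfp genes was not tested. Reads that aligned to several places took 15.2% ± 2.01 of the control and 21.8% ± 2.45 of the knockdown RNA libraries (SD, n = 3 each). Zfp genes have close copies, and reads shared by copies fall in that class, so single members' counts are uncertain; the part of this gap in the changes below was not tested.

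In RNA, the Zfp genes moved mainly upward. Of the 204 members tested, 68 (33.3%) were higher in knockdown cells, beside 22% of all 11117 genes tested, and 10 (4.90%) were lower, beside 21.7%. The remaining 126 did not pass the test (edgeR's quasi-likelihood test, adjusted p under 0.05 over all genes tested). The members' median log2 fold change was 0.29, with quartiles of 0.05 and 0.59, beside a median of 0.0040 over all genes. Without the 17 members that reached the sum only through the knockdown libraries, 63 of 187 (33.7%) were higher and 10 (5.35%) lower, with a median of 0.26. A value above 0 was found in 163 members (79.9%) and in 50.3% of all genes. An increase of at least 1 on the log2 scale was called in 10 members (4.90%), beside 5.14% of all genes. All genes tested include scarcer ones. Among the 9773 genes with an RNA sum of at least 300, as for members, 355 had such an increase. Whether increases of that size were more or less frequent among members was not tested. A decrease of that size was called in no member, beside 3.33% of all genes. At an unadjusted p under 0.05, 13 members were lower, beside 25.4% of all genes. The 3 knockdown libraries lay above the 3 control libraries in 87 members (42.6%, beside 26.8% of all genes) and below them in 13 (6.37%, beside 26.2%).

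**Figure D1:**
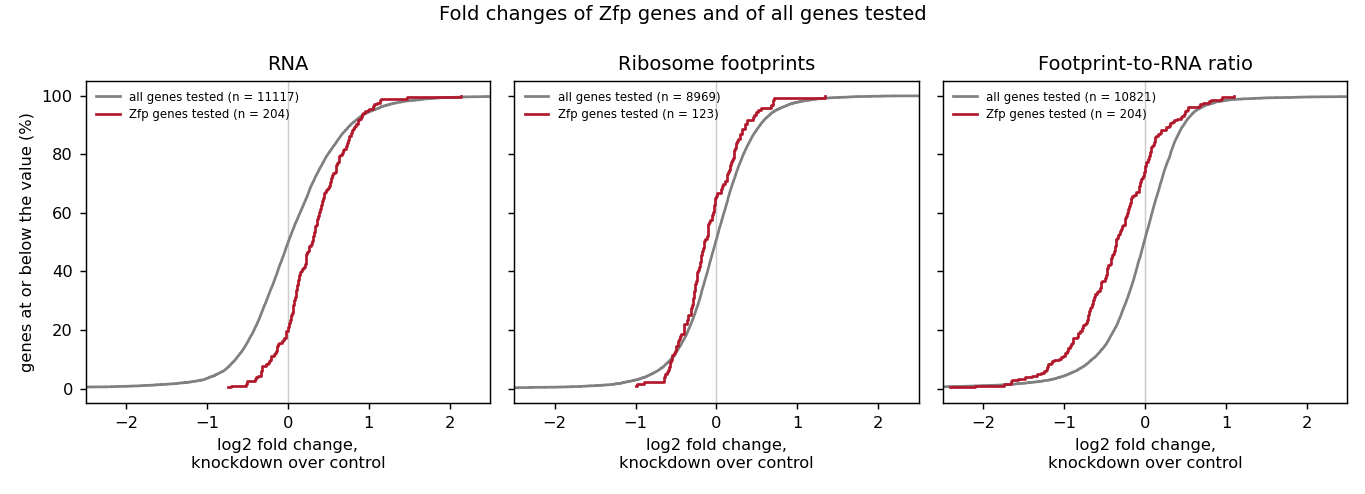
Share of genes (%) at or below each log2 fold change, knockdown over control, for RNA, ribosome footprints and the footprint-to-RNA ratio, with all genes tested in grey and Zfp genes in red. Over most of the range the red curve lies right of the grey one for RNA (medians 0.29 and 0.0040) and left of it for the ratio (medians -0.36 and -0.01).

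Summed over all 204 members, Zfp counts made up 3903, 3556 and 4297 CPM of the plain gene counts in the control RNA libraries and 4652, 4899 and 4594 in the knockdown libraries. These are means of 3919 ± 371 and 4715 ± 162 (SD, n = 3 each), and every knockdown library lay above every control library. In footprints the order was the opposite. Members took 3401, 3062 and 3454 CPM in control and 2843, 2934 and 3042 in knockdown libraries, with means of 3306 ± 213 and 2940 ± 99.5 (SD, n = 3 each). With TMM-scaled library sizes the footprint means were 3228 ± 191 and 3010 ± 71.8, and the groups then overlapped, while the RNA means were 4000 ± 144 and 4607 ± 146 and did not. The members were chosen with results known, so no test of these sums is given.

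**Figure D2:**
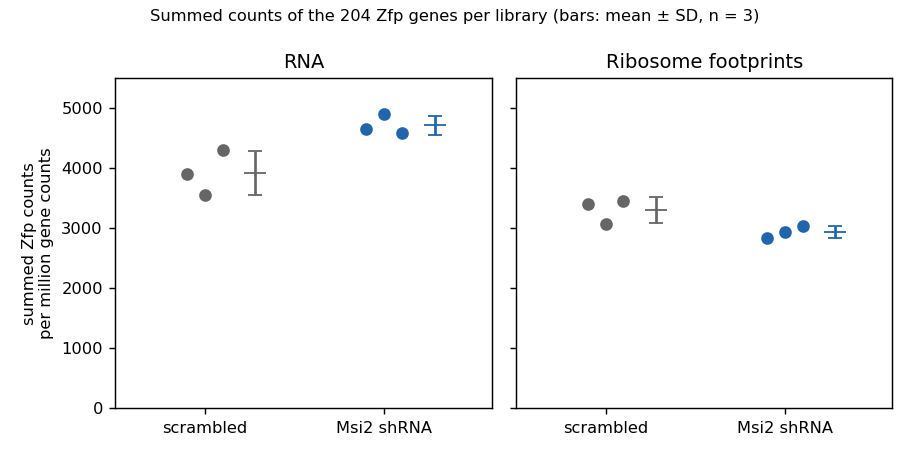
Summed level of the 204 Zfp genes in CPM of the plain gene counts (y axis, from 0) in each RNA and footprint library, with 1 point per library and bars for the mean ± SD (n = 3). Knockdown libraries lie above the controls in RNA (4594 to 4899 against 3556 to 4297) and below them in footprints (2843 to 3042 against 3062 to 3454).

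The RNA increase was seen at each level of abundance. When members were split by average log2 CPM into 3 bins of 68, 29.4, 36.8 and 33.8% were higher from the scarcest to the most abundant bin, beside 21.4, 24.4 and 22.2% of all genes in the same ranges. The scarcest bin includes the 17 members that reached the sum of 300 only through the knockdown libraries, 5 of them called higher. Its share without them is not given. The shares lower were 1.47, 4.41 and 8.82% of members, beside 12.04, 17.9 and 27.9% of genes. By genomic span, the members' median log2 fold change was 0.10 in the shortest 68, 0.37 in the middle and 0.33 in the longest, beside -0.14, -0.04 and 0.13 for all genes of those spans. Short genes, members or not, thus had lower values than long ones, and members stood above other genes in each bin. Under 13 other settings no called member changed sign, and 26 of the 68 higher and 2 of the 10 lower calls were kept in every setting. One of the 13, the filter of 10 CPM in 3 libraries, leaves scarcer members untested, and these count as not kept. With that filter 8079 genes were tested, and 44 of the 68 higher and 8 of the 10 lower calls were kept. Without control library 1, 41 members were higher and 4 lower. The shares of all genes then also fell, from 22% and 21.7% to 15.4% and 16.6%. Leaving out knockdown library 1, 2 or 3 left 4, 6 or 3 members lower, beside 16.6, 16.8 and 17.4% of all genes.

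The member with the largest RNA increase was Zfp57, a KRAB protein that binds methylated imprinting control regions and keeps their methylation. Its RNA was at 5.84, 6.59 and 8.39 CPM in control and 26.2, 30.7 and 32.9 CPM in knockdown libraries, with no overlap. The log2 fold change was 2.13 ± 0.17 (SE, adjusted p = 1.16e-07, edgeR), and its call held in all 13 settings. Zfp57 footprints were too few to test, with 37 reads in all: they were at 2.18, 2.00 and 1.40 CPM in control and 9.01, 7.97 and 3.05 CPM in knockdown libraries. The ratio test, which includes such genes, gave -0.32 ± 0.56 on the log2 scale (adjusted p = 0.875).

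Zfp57 belongs to a list of 6 KRAB proteins known for imprints, retroelements or development, of which 4 (66.7%, beside 22% of all genes) were higher in RNA and none lower, with a median log2 fold change of 0.63; 5 of the 6 are members. Zfp445, which acts beside Zfp57 at imprints, was at 15.7, 12.7 and 18.7 CPM in control and 22.8, 31.5 and 22.8 CPM in knockdown RNA libraries. It rose by 0.72 ± 0.17 on the log2 scale (SE, adjusted p = 0.00255, edgeR), with every knockdown library above the controls. Its footprints did not follow, at 46.2, 42.0 and 26.6 against 39.5, 41.9 and 40.7 CPM, a log2 fold change of -0.01 ± 0.20. Zfp809, which silences retroviruses in embryonic cells, rose by 0.54 (adjusted p = 0.0322, edgeR), a call kept in 6 of 13 settings. Zfp568, a repressor needed in early development, rose by 0.95 (adjusted p = 0.0101, edgeR). Its call was kept in 11 of 13 settings and was lost without control library 1, among others. Zfp932, which silences retroelements, was at 0.08 (adjusted p = 0.651), and Zfp708, under the sum of 300 and so no member, at 0.07. Of the 3 tested in footprints none was called, at an unadjusted or adjusted p under 0.05 by edgeR or at an adjusted p by DESeq2, and the median was -0.01.

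The other members with RNA increases of 1 or more were Zfp658, Zfp184, Zfp948, Zfp101, Zfp281, Zfp266, Zfp14, Zfp292 and Zfp37, with log2 fold changes of 1.47, 1.15, 1.14, 1.14, 1.10, 1.06, 1.05, 1.05 and 1.00. Zfp658, Zfp14 and Zfp37 are among those that reached the sum of 300 only through the knockdown libraries, so they entered the set by the group in which they were high; without the 17 of this kind, 7 members had such an increase. In none of these did control and knockdown libraries overlap. Zfp658, scarce in control cells, was at 1.74, 2.10 and 2.05 CPM against 5.30, 7.05 and 4.16 CPM (SE 0.28, adjusted p = 0.000535, edgeR). The calls of Zfp184, Zfp948, Zfp101, Zfp281, Zfp266 and Zfp292 held in all 13 settings, and those of Zfp14, Zfp37 and Zfp658 in 10, 9 and 12.

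**Figure D3:**
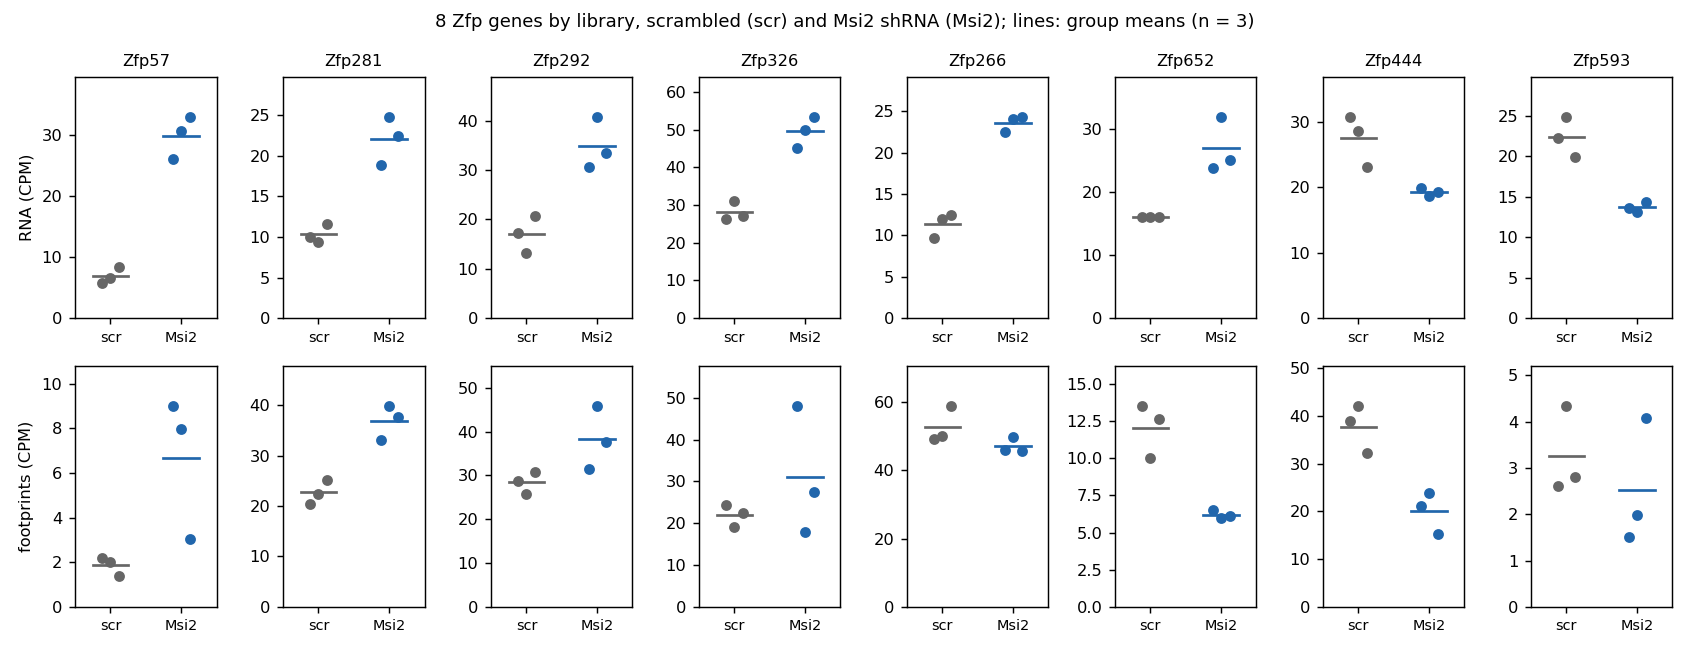
RNA (top row) and footprints (bottom row) of 8 Zfp genes in CPM on axes from 0, with 1 point per library, scrambled in grey and Msi2 shRNA in blue, and lines for group means (n = 3). Zfp266 and Zfp652 have higher RNA points but no higher footprint points in knockdown libraries, while both rows rise for Zfp281 and both fall for Zfp444.

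Many members tied to promoters, chromatin and cofactors rose. Of 18 measured members of that list, 10 (55.6%, beside 22% of all genes) were higher in RNA and none lower (median log2 fold change 0.34), and all 18 had a value above 0; at an unadjusted p under 0.05, edgeR found none lower, and neither did DESeq2 after adjustment. Zfp281, a repressor of pluripotency genes that binds GC-rich promoters, was at 10.04, 9.38 and 11.6 CPM in control and 18.9, 24.7 and 22.4 CPM in knockdown RNA libraries. Its groups did not overlap, and the log2 fold change was 1.10 ± 0.16 (SE, adjusted p = 4.36e-05, edgeR). Zfp281 was also the only member whose footprints were called higher, at 20.5, 22.4 and 25.2 CPM against 33.0, 39.9 and 37.6 CPM. Its footprint log2 fold change was 0.69 ± 0.23 (SE, adjusted p = 0.0295, edgeR), a call lost with DESeq2 (adjusted p = 0.131) and without control library 1 or 2 (0.127 and 0.066) or knockdown library 1, 2 or 3 (0.0627, 0.0644 and 0.126).

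Zfp292, a large zinc finger protein, was at 17.3, 13.2 and 20.6 CPM in control and 30.6, 40.7 and 33.4 CPM in knockdown RNA libraries. Zfp462, a large heterochromatin factor, was at 19.8, 19.8 and 28.2 against 39.8, 46.4 and 40.4 CPM, and rose by 0.91 ± 0.15 (SE, adjusted p = 0.000135, edgeR). Neither had overlapping RNA groups, and neither was called in footprints, where their log2 fold changes were 0.38 ± 0.22 and 0.16 ± 0.19. Zfp592 and Zfp687, partners in a cofactor complex with Zmynd8, rose by 0.67 and 0.41, while their partner Zfp532 was at 0.33 and not called (adjusted p = 0.186). Zfp384, Zfp217, Zfp335, Zfp131 and Zfp219 rose by 0.54, 0.55, 0.44, 0.35 and 0.31. Zfp143, a promoter-binding activator, was at 0.31 and Zfp148 at 0.33, and neither was called (adjusted p = 0.118 and 0.054, edgeR). The calls of Zfp335 and Zfp687 were kept in 12 and 10 of 13 settings, those of Zfp219 and Zfp131 in 9 and 7, and those of Zfp384, Zfp217, Zfp462, Zfp592 and Zfp292 in all 13.

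The list tied to RNA, ribosomes and splicing moved both ways. Of 9 measured, 2 were higher, 2 lower (22.2% each, beside 22% and 21.7% of all genes) and 5 not called, with a median of 0.07. Zfp326, a nuclear protein that links splicing to transcription, was at 26.4, 31.2 and 27.2 CPM in control and 45.3, 50.0 and 53.3 CPM in knockdown RNA libraries, a rise of 0.81 ± 0.12 (SE, adjusted p = 7.99e-05, edgeR). Its footprints, at 24.4, 19.0 and 22.4 against 48.1, 17.9 and 27.5 CPM, overlapped, with knockdown library 1 the highest of all and library 2 below every control. Their log2 fold change was 0.71 ± 0.25 (adjusted p = 0.0513), and 0.14 without knockdown library 1. Zfp106, an RNA-binding protein needed by motor neurons and muscle, rose by 0.42 ± 0.12 in RNA (adjusted p = 0.00964), from a mean of 112 to 149 CPM, a call lost without control library 1. Zfp598, which senses collided ribosomes, was at 0.08 in RNA and 0.17 in footprints, and Zfp207, a mitotic and splicing factor, at 0.0052 and -0.05; none of these was called. Zfp622, a factor of 60S subunit maturation, was at -0.27 and -0.25, again without a call.

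The RNA decreases were few and small. Zfp593, the mouse form of a 60S assembly factor, was at 22.2, 24.8 and 19.9 CPM in control and 13.6, 13.1 and 14.4 CPM in knockdown libraries. It fell by 0.71 ± 0.14 on the log2 scale (SE, adjusted p = 0.000836, edgeR), with no overlap and a call that held in all 13 settings. Zfp444 was the only other member lower in all 13. Its RNA was at 30.7, 28.7 and 23.0 CPM against 19.9, 18.7 and 19.3 CPM (log2 fold change -0.51 ± 0.14, adjusted p = 0.00688), and its footprints at 38.8, 42.0 and 32.2 against 21.0, 23.9 and 15.3 CPM. Footprints of Zfp444 fell by 0.98 ± 0.23 (SE, adjusted p = 0.00282, edgeR), the single lower footprint call among members, which every setting kept. The remaining decreases were Zfp467, Zfp524, Zfp954, Zfp830, Zfp771, Zfp330 and Zfp277, between -0.74 and -0.32, and Zfp706, whose libraries overlapped between groups. Their calls were kept in 4 (Zfp706) to 12 (Zfp524) of 13 settings.

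Footprints of most members were scarce. Of the 204, 123 passed the filter on low counts, with a median of 153 reads over the 6 libraries, and the other 81 had 4 to 64 reads, with a median of 26. Of the 123, 1 was higher and 1 lower, beside 8.76% and 7.38% of 8969 genes tested. At an unadjusted p under 0.05, 7 of the 123 were higher and 6 lower, beside 14.4% and 13.8% of all genes tested. The median standard error was 0.30 on the log2 scale, beside 0.21 over all genes. The median log2 fold change was -0.15, beside -0.01 over all genes, and 81 members were below 0 (65.9%, beside 51.1%). Knockdown libraries lay above the controls in 8 members, beside 16% of genes, and below them in 14, beside 15.3%. No member was called with a change of at least 1 on the log2 scale (edgeR or DESeq2), beside 2.02% of genes higher and 2.56% lower. Without the shallowest footprint library of each group, 3 members were higher and 4 lower, beside 8.92% and 7.54% of all genes. The members' median was then -0.09. At this depth a missing call does not show that a member's footprints stayed the same.

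The same 123 members had an RNA median of 0.22, with 41 higher and 7 lower, and a footprint median of -0.15. Of the 41 whose RNA rose, 1 was called higher in footprints; the RNA median of these 41 was 0.67 and their footprint median -0.01. Over the 1966 genes of the whole table whose RNA rose and whose footprints were tested, the RNA median was 0.62, the footprint median 0.38, and 30.2% were called higher in footprints. Across the 123 members the RNA and footprint log2 fold changes had a Pearson correlation of 0.31 and a Spearman correlation of 0.26, beside 0.74 and 0.66 over 8918 genes. These correlations are across genes, which are not independent replicates, and the members' larger standard errors and lower abundance stand beside them. The footprint change was below the RNA change in 94 of the 123 (76.4%), beside 48.2% of all genes.

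**Figure D4:**
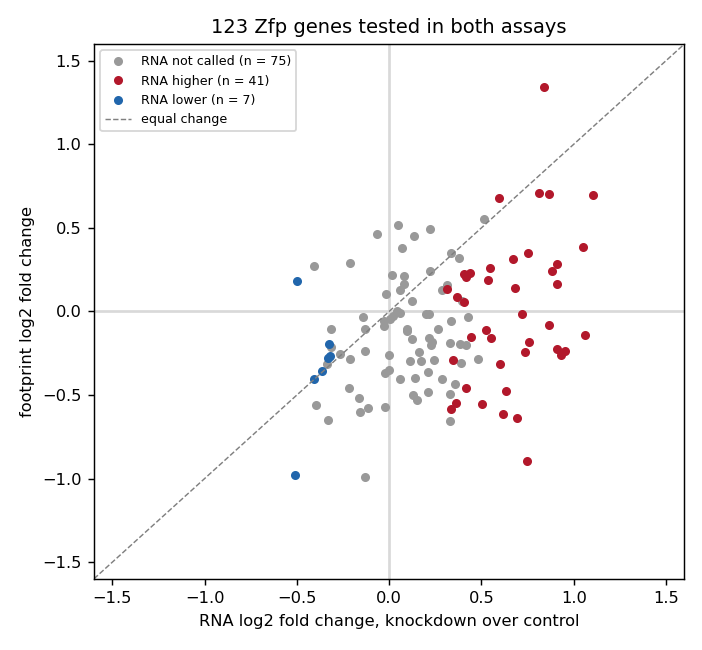
Footprint against RNA log2 fold change, knockdown over control, for the 123 Zfp genes tested in both assays, with 41 whose RNA was higher in red, 7 lower in blue and 75 not called in grey. The dashed line marks equal change, and 94 of the 123 points lie below it.

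The footprint-to-RNA ratio, tested as an assay-by-knockdown interaction in 12 libraries, is a measure of translational efficiency. It shares the RNA libraries with the RNA comparison, so the ratio is not a separate observation of the members that rose. Its median over the 204 members was -0.36, beside -0.01 over 10821 genes, and 153 were below 0 (75%, beside 51.3%). After adjustment, edgeR called 0 members higher and 2 lower, beside 0.111% of genes in each direction. At an unadjusted p under 0.05, 1 member was higher (5.79% of genes) and 36 were lower (17.6%, beside 5.88% of genes), and DESeq2 called 0 higher after adjustment. Both lower members changed by more than 1 on the log2 scale, beside 0.102% of genes, and no member rose by that much, beside 0.0277%. The median was -0.36 in the 123 members with tested footprints and -0.36 in the other 81. In the 41 members with higher RNA it was -0.65, with 39 below 0, and in the 1966 genes with higher RNA it was -0.25.

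Zfp266 and Zfp652 were the 2 members with a lower ratio. Zfp266, in an array of Zfp genes on chromosome 9, was at 9.63, 12.003 and 12.4 CPM in control and 22.4, 24.1 and 24.3 CPM in knockdown RNA libraries. Its RNA groups lay far apart, and the log2 fold change was 1.06 ± 0.15 (SE, adjusted p = 3.83e-05, edgeR). Its footprints overlapped between groups, at 49.3, 50.1 and 58.9 against 46.1, 49.8 and 45.8 CPM. The ratio changed by -1.22 ± 0.23 (SE, adjusted p = 0.0192, edgeR). That call was lost without control RNA library 1 or knockdown RNA library 1 or 3. It was also lost without control footprint library 1 or knockdown footprint library 1 or 3 (adjusted p of 0.0543 to 0.119 by edgeR over all these fits). In these fits the ratio of Zfp266 changed by -1.25 to -1.09. Only 0 to 2 of all genes tested were called lower in them, beside 12 with all libraries. With a replicate block the adjusted p was 0.0569 (edgeR).

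Zfp652, a transcriptional repressor that partners CBFA2T3, was at 16.0, 16.0 and 16.1 CPM in control and 23.8, 31.9 and 25.1 CPM in knockdown RNA libraries, a rise of 0.75 ± 0.14 (SE, adjusted p = 0.000546, edgeR). Its footprints were at 13.5, 10.01 and 12.6 CPM against 6.51, 5.98 and 6.10 CPM, so the assays moved in opposite directions with no overlap in either. The footprint change of -0.90 ± 0.38 was not called (adjusted p = 0.104), and it rests on 92 reads over 6 libraries. The ratio changed by -1.66 ± 0.37 (SE, adjusted p = 0.0498, edgeR), just under the threshold. That call was lost with upper-quartile factors (0.0558), with a replicate block (0.108) and without the shallowest footprint libraries (0.124). It was also lost without 10 of the 12 single libraries, the exceptions being control RNA library 3 (0.0157) and control footprint library 2 (0.0458). In the fits that lost it, the ratio of Zfp652 changed by -1.72 to -1.51 without a single library. Those fits called 0 to 11 of all genes tested lower, beside 12 with all libraries.

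The machinery that KRAB zinc fingers recruit was measured in the same libraries. Of 27 measured corepressor and heterochromatin genes, none of them members, 11 (40.7%, beside 22% of all genes) were higher in RNA, with a median of 0.25. In footprints 7 (25.9%, beside 8.76% of all genes) were higher with edgeR and 3 with DESeq2, none was lower with either or at an unadjusted p under 0.05, and the median was 0.26. The ratio had a median of 0.04 and no call with edgeR or DESeq2, and 1 gene was higher and 0 lower at an unadjusted p under 0.05. Trim28, the KRAB corepressor, was at 0.28 in RNA, not called (adjusted p = 0.105), and rose by 0.54 in footprints (adjusted p = 0.0038, edgeR). Setdb1 rose by 0.66 in RNA and was at 0.29 in footprints, not called. Whether these genes differ from the Zfp members was not tested.

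Other zinc finger families with the same sum of 300 gave these values, to be read beside the 22% of all genes that were higher in RNA and the 21.7% that were lower. Among 27 Zbtb genes, which join zinc fingers to a BTB domain, 8 (29.6%) were higher and 0 lower in RNA (edgeR; 0 lower unadjusted and by DESeq2), and the RNA, footprint and ratio medians were 0.29, -0.02 and -0.38. Among 14 Zkscan and Zscan genes, with a SCAN domain, 3 (21.4%) were higher and 1 (7.14%) lower, and the medians were 0.22, -0.03 and -0.52. The 15 Zc3h genes, whose CCCH fingers bind RNA, had 6 (40%) higher and 1 (6.67%) lower, with medians of 0.22, 0.04 and -0.21. The 10 Kruppel-like factors had 1 higher and 1 lower (10% each), with medians of -0.01, -0.40 and -0.44. An RNA median above the footprint median was thus found in each of the 4 families, and no difference between families was tested.

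Many members lie side by side. With gene starts at most 1 Mb apart, 85 members formed 13 groups of 4 or more (positions from RefSeq, GRCm38.p6), and 53 of all members lie on chromosome 7 and 23 on chromosome 17. Of members in such groups 32.9% were higher in RNA, of those in pairs or triples 32.4%, and of single members 34.1%. Groups differed in their medians. A group of 5 on chromosome 17, from 32815449 to 33631716, held 4 higher members (Zfp799, Zfp472, Zfp81 and Zfp101) and had a median log2 fold change of 0.74. One of 11 on chromosome 7, from 29768552 to 30169775, which includes Zfp14 and Zfp568, held 6 higher members and had a median of 0.41. The largest group, 12 members on chromosome 17 from 21008941 to 22456689 with Zfp948 among them, held 3 higher members. At the other end, 5 members on chromosome 7 from 6131489 to 7209998 had a median of -0.40, with Zfp444 and Zfp954 lower and none higher. In all, 75 of 204 members overlap another gene model in that annotation: 34.7% of them were higher, beside 32.6% of the rest, and the counting's strand setting is not given in the sources used here.

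**Figure D5:**
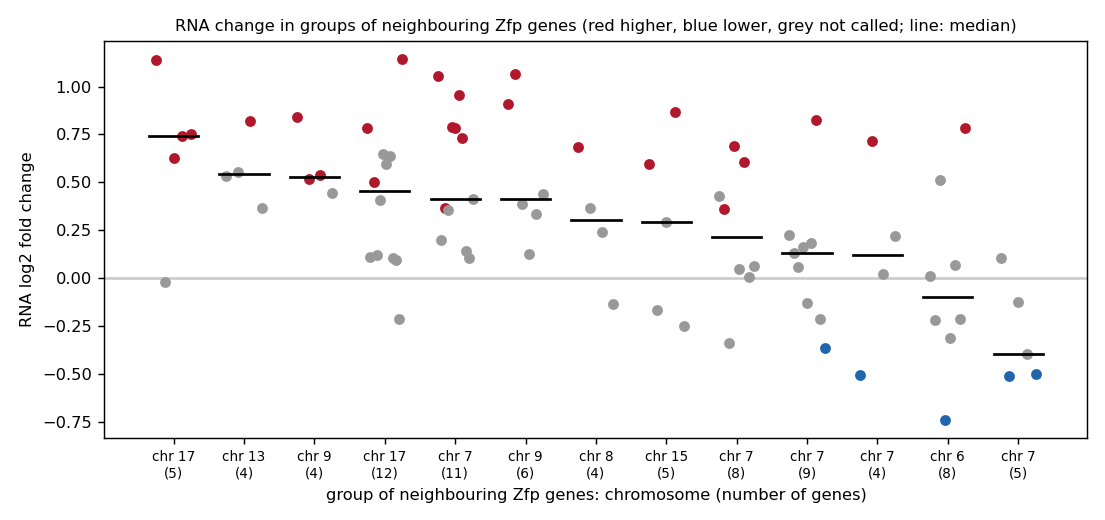
RNA log2 fold change, knockdown over control, of each Zfp gene in 13 groups of 4 or more neighbours, ordered by group median (line), with calls higher in red and lower in blue. Medians run from 0.74 in the group of 5 on chromosome 17 to -0.40 in a group of 5 on chromosome 7.

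Promoter windows, from 250 bases before to 50 after the start, were found for 167 members in a RefSeq table (GRCm38.p6). Their median GC content was 56.3%, beside 61.7% over 7935 genes with a sum of at least 300. Of 11 motifs searched on both strands, where matches of several motifs may overlap, the first 2 given here had the largest ratio of their share of members to that of all 27025 windows. The site bound by Zfp143 was in 7 members (4.19%), in 2.92% of the 7935 genes and in 1.11% of all windows. The NRF1 site was in 7 (4.19%), in 2.34% and in 0.981%. The remaining motifs were found in these shares of members, of the 7935 genes and of all windows: CCGGAAG (ETS) in 20.4, 20.8 and 9.14%, TGACGTCA (CRE) in 3.59, 3.60 and 1.85%, CCAAT in 45.5, 38.9 and 38.0%, GGGCGG (SP) in 53.3, 68.7 and 35.9%, TATAAA in 7.78, 6.39 and 14.2%, the YY1 site in 1.80, 1.98 and 0.699%, CACGTG (E-box) in 7.19, 11.1 and 7.24%, TTTCGCGC (E2F) in 0.599, 0.718 and 0.326%, and TGANTCA (AP-1) in 2.99, 4.61 and 7.92%. Beside the 7935 genes, members thus had a lower share for SP, E-box and AP-1 and a similar one for ETS and CRE. The stretches shown are those of the 7 members with higher RNA that hold either of the first 2 motifs, printed 5′ to 3′ on the gene's strand with the match in capitals, so that the variable base and the flanks can be read.
Zfp180 (chr7:24081867-24081894, plus strand): gagttctgGGAATTGTAGTtccattgag
Zfp606 (chr7:12478273-12478300, plus strand): tctttgaaACTACAACTCCcaatagtcc
Zfp692 (chr11:58307013-58307040, plus strand): taaggctaACTACAATTCCcggcaggct
Zfp334 (chr2:165388290-165388317, minus strand): cgagactctGCGCATGCGCggtctccta
Zfp653 (chr9:22071471-22071498, minus strand): acggactacGCGCATGCGCagctatggc
Zfp658 (chr7:43562163-43562190, plus strand): aatagtagcGCGCATGCGCttcgccagc
Zfp719 (chr7:43579522-43579549, plus strand): agtggtggtGCGCATGCGCgccacccag
Distances are counted to the start on which the promoter window is set, which can differ from the edge of the gene's span. The span of Zfp180, for example, begins at 24081877, inside its printed stretch. The Zfp143 site ends 11 bases before the window's start in Zfp180, 13 in Zfp606 and 37 in Zfp692, and in Zfp180 it reads on the opposite strand. RNA of these 3 rose by 0.36, 0.52 and 0.91, and that of Zfp334, Zfp653, Zfp658 and Zfp719 by 0.76, 0.52, 1.47 and 0.63. Zfp658 reached the sum of 300 only through the knockdown libraries. The other members with these motifs were not called in RNA. They were Zfp1, Zfp358, Zfp691 and Zfp93 for the Zfp143 site and Zfp213, Zfp639 and Zfp82 for the NRF1 site. A match is a description of letters, and binding was not measured.

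Few members had an Msi2 site in the deposited 3' UTR list, which holds 2671 regions in 1199 genes. Zfp106, Zfp266, Zfp326, Zfp451, Zfp516, Zfp664 and Zfp687 had 11 regions between them. These 7 members are 3.43% of 204, beside 11.5% of the 9773 genes with a sum of at least 300. In the 3 bins of abundance 0, 2 and 5 of 68 members had a region, beside 3.92, 6.84 and 15.02% of genes in the same ranges, so most of the regions fell in the more abundant members. Peak height, the authors' total over the 5 libraries, was 10 to 20 in members, with a median of 14, beside 16 over all regions. Reads in the members' regions numbered 3, 26, 37, 45 and 41 in the libraries cut with undiluted, 1 in 20 (low and high size), 1 in 50 and 1 in 75 RNase, of 1954, 17760, 24566, 26026 and 24518 reads in all regions of the list.

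Zfp451, a SUMO ligase and repressor, had the most regions, 4 with heights of 13 to 16 and 58 reads, on chromosome 1 between 33796511 and 33800541. These lie inside the gene's span but 35078 to 38941 bases from its annotated 3' end, and the region of Zfp687 lies 12226 bases from its own, so their place in a 3' UTR rests on the authors' list. Its RNA was at 28.1, 25.2 and 26.5 CPM in control and 31.0, 31.0 and 33.6 CPM in knockdown libraries, a log2 fold change of 0.26 that was not called (adjusted p = 0.0888). Zfp266, with the lower ratio, had 2 regions of heights 16 and 11 on chromosome 9, at 20496664 to 20496775 and 20498029 to 20498134. Zfp326 had 1 of height 15 on chromosome 5, at 105915673 to 105915776. Of the 7 members, Zfp266, Zfp326, Zfp106 and Zfp687 were higher in RNA (1.06, 0.81, 0.42 and 0.41), and Zfp451, Zfp516 and Zfp664 were not called (0.26, 0.23 and 0.21). Over all 204 members 33.3% were higher in RNA, and over all genes 22%. None of the 7 was called in footprints by edgeR or DESeq2, and at an unadjusted p under 0.05 only Zfp326 would be. The ratio of the 7 ran from -1.22 in Zfp266 to -0.11 in Zfp326, each below 0. So were 75% of all members and 51.3% of all genes, and a link between regions and the ratio was not tested. Of the 1380 regions outside the 3' UTR list, 2 fell over members, 1 in Zfp462 and 1 in Zfp828, each with a height of 16. The strands of Zfp462 and Zfp828 are not given in the gene table used, so these matches are by position alone, with a region on the minus strand in Zfp462 and on the plus strand in Zfp828.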

How the data were processed

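The authors' deposited RNA and footprint tables hold raw counts of reads over each gene's coding sequence, made with TopHat and HTSeq on mm10, with DESeq also named, per the submitters' processing notes; versions are not given. The deposited peak lists, built with cutadapt and Novoalign on mm10 per those notes, hold per region a signal (total peak height) and the counts of reads of each of 5 CLIP libraries; the peak caller is not given in the sources used here. Lines that name no gene (reads in no feature, 32.3 to 35.2%, ambiguous, 0.175 to 0.228%, and aligned to several places, 13.4 to 24.5% of an RNA library) stayed out of library sizes and tests.

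The count tables were fitted with edgeR 4.0.16 under R 4.3.3, using filterByExpr (minimum count 10, total 15), TMM factors, robust quasi-likelihood F tests and Benjamini-Hochberg adjustment over all genes tested, threshold 0.05. RNA (3 against 3 libraries) and footprints (3 against 3) were fitted apart; the ratio was an assay-by-knockdown interaction fitted to 12 libraries. Fold changes are knockdown over control in log2 units, with the fitted standard error. The code was tested on simulated data. Members and lists were chosen with earlier results of these data known, so no list was tested and lists are given as counts beside the share called among all genes. One result on the corepressor genes is not reported here. Named members are the largest called changes without overlap (up to 10 in each direction), those called for the ratio, those with a 3' UTR region, the role lists and those beside the sum of 300; a further rule on RNA per coding length could not be applied. Zfp706, and members named for their position, promoter or other region, are outside the rule and were chosen after their values were seen. Positions, spans and promoters came from RefSeq tables (GRCm38.p6), which matched all 204 members and 20446 symbols; 37 members had no strand there. Alternatives were DESeq2 1.42.0, upper-quartile factors, other filters, a replicate block, removal of each library's span trend (loess, 0.5), 1 fit over 12 libraries, other sums and fold minimums, stricter peaks, and each library left out; leaving out the shallowest footprint libraries together was chosen after seeing the data. RNA libraries held 9221566 to 26785876 and footprint libraries 512256 to 2959625 gene counts; the floor for a count of 0 (3 counts, 95%) covers counting error only.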

Additional observations from a re-analysis of the deposited data

Results flagged for a closer look

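The changes of the footprint-to-RNA ratio of Zfp266 (-1.22 on the log2 scale) and of Zfp652 (-1.66) stand out because the effect of the knockdown differed between RNA and footprints by the test of that difference itself (edgeR's quasi-likelihood test of the interaction, adjusted p = 0.0192 and 0.0498). Among the 204 members 36 had a lower ratio at an unadjusted p under 0.05, and these 2 passed after adjustment. Both calls were lost in several of the leave-one-out fits and with a replicate block.

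Zfp871, another Zfp gene, summed to 130 RNA counts and so is not a member, but it had 5 regions in the 3' UTR peak list with heights of 10 to 15 and 62 CLIP reads. This is a signal in data that the comparisons of members do not use. Its RNA libraries held 8 to 44 counts each, and its footprint counts summed to 231, above its RNA sum although every footprint library was shallower than every RNA library.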

How the results depend on the processing

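No result changed direction under any setting run. Of the RNA counts of members higher and lower (68 and 10), 39 higher were left in the smaller set with a sum of at least 1000. With a fold minimum of 1, 10 and 0 were left. With a replicate block 4 were lower and with the span trend removed 5, beside 17.4% and 22.3% of all genes. The RNA median became 0.2112 with a sum of at least 1000. Footprint counts higher and lower (1 and 1) became 3 and 2 without a filter (median -0.1113), 3 and 4 in 1 fit over all 12 libraries (median -0.1169), 3 and 4 without the shallowest library of each group (median -0.0941) and 0 and 0 with a fold minimum of 1; higher became 0 with DESeq2 and 2 with a filter of 10 CPM. Ratio counts lower (2) became 1 with upper-quartile factors (median -0.4166), 4 without a filter, 0 with a replicate block and 1 without the shallowest libraries (median -0.2909), and the ratio median -0.301 with a sum of at least 1000. Members with a 3' UTR region (7) became 1 at a height of 20 or more and 1 with reads in all 5 libraries. With each library left out in turn, RNA higher ran from 41 to 76, lower from 3 to 13 and the median from 0.2177 to 0.3421; footprints higher from 0 to 4, lower from 1 to 4 and the median from -0.1952 to -0.1154; ratio lower from 0 to 9 (9 without control RNA library 3) and the median from -0.4067 to -0.2895. Over all genes, 6.15 and 5.57% were higher and lower in footprints without a filter. In 1 fit over all 12 libraries these shares were 6.97 and 6.33%. DESeq2 called 5.36% higher in footprints, and the filter of 10 CPM gave 9.41%. The ratio was lower in 0.0647% of all genes with upper-quartile factors, in 0.319% without a filter and in 0.0619% without the shallowest libraries. The cause of the shifts in members was not tested. In the RNA fits with each library left out, 15.4 to 23.8% of all genes were higher and 16.6 to 24.2% lower. In the footprint fits of that kind these shares were 4.85 to 9.24% and 4.04 to 7.82%. In the ratio fits 0 to 1.03% of all genes were lower, with the largest share without control RNA library 3.

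The labels do not say whether the replicate numbers pair the libraries. The correlations computed for same-numbered control and knockdown libraries were 0.057, -0.28 and -0.23 in RNA and 0.050, 0.029 and -0.0025 in footprints. Not every library correlated best with its own number. With 3 libraries per group, these values cannot decide whether the numbers pair the libraries. With the replicate block, 58 members were higher and 4 lower in RNA, beside 18.4% and 17.4% of all genes. In footprints 1 was higher and 1 lower, beside 8.80% and 7.86%, and in the ratio 0 were lower, beside 0.0185%. In that ratio test (edgeR with the block) Zfp266 had an adjusted p of 0.0569 and Zfp652 of 0.108. The restriction to proteins with a C2H2 pattern was not run.

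Footprint depth limits the calls: members had a median of 4 to 25.5 reads in a footprint library, beside 123 to 354.5 in an RNA library. Counts of near-identical Zfp genes are uncertain, reads aligned to several places were more frequent in knockdown RNA libraries, and Msi2 RNA itself was not called lower there. Regions were called over all 5 CLIP libraries, with 1 library per condition.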
